A study of Rattus norvegicus with 6 samples.

Results

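Ttr and Aqp1, a pair of genes strongly expressed in the choroid plexus, were followed through the cortex of embryonic rats, as 2 of the 32754 genes in the count table. They were chosen by their Ensembl identifiers, ENSRNOG00000016275 for Ttr and ENSRNOG00000011648 for Aqp1, and both passed the filter on low counts that left 14818 genes for testing. The symbols came with the choice of the identifiers and were not checked against the Rnor_6.0 annotation here. Ttr passed that filter through SD, since 1 of the 3 tish libraries alone held more than a few of its reads.

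The choroid plexus is a folded epithelium that hangs into the brain ventricles, makes cerebrospinal fluid and is continuous with the medial edge of the embryonic cortical wall. Ttr encodes transthyretin, which carries thyroid hormone and, with retinol-binding protein, retinol, and in the brain the choroid plexus epithelium is its main source. Aqp1 encodes aquaporin-1, a water channel of the apical membrane of that epithelium, and it is also expressed outside the plexus, in red blood cells and in some endothelia.

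RNA was sequenced from 6 embryos at embryonic day 18, 3 of SD (Sprague-Dawley, the control strain) and 3 of tish, a rat line with bilateral heterotopia beneath the cortex linked by the title of the series to a deletion in Eml1. Each library came from 1 animal, and each group held 2 males and 1 female; libraries are numbered in the order of the sample list, with the female as SD 2 and tish 2. The protocol describes neocortex for SD and, for tish, cortex that included the heterotopia, so genotype and dissected tissue changed together and cannot be told apart. Litters are not stated, and it is not known whether the animals of a group are independent. The p-values treat them as independent and carry over to the lines only if that holds. Total counts ran from 15625915 to 20844504, and a count of 0 would have allowed up to 0.146 to 0.192 CPM, the count scaled to a common library total with TMM factors, which correct for library composition. SD 1 was the library least like the others of SD over all genes, and tish 3 stood apart in the members, so results are also given without them.

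Within tish, 2 libraries held almost no Ttr and 1 held a great deal. Reads of Ttr numbered 10759 in SD 1, 15780 in SD 2 and 15459 in SD 3, against 6 in tish 1, 4 in tish 2 and 6804 in tish 3. On the CPM scale this was 613, 851 and 828 in the SD libraries and 0.383, 0.194 and 346 in the tish libraries. The SD libraries were close to each other, while tish 3 stood far above the other tish libraries and below every SD library. The groups did not overlap, which also held, with tish lower, for 22.6% of all tested genes.

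**Figure D1:**
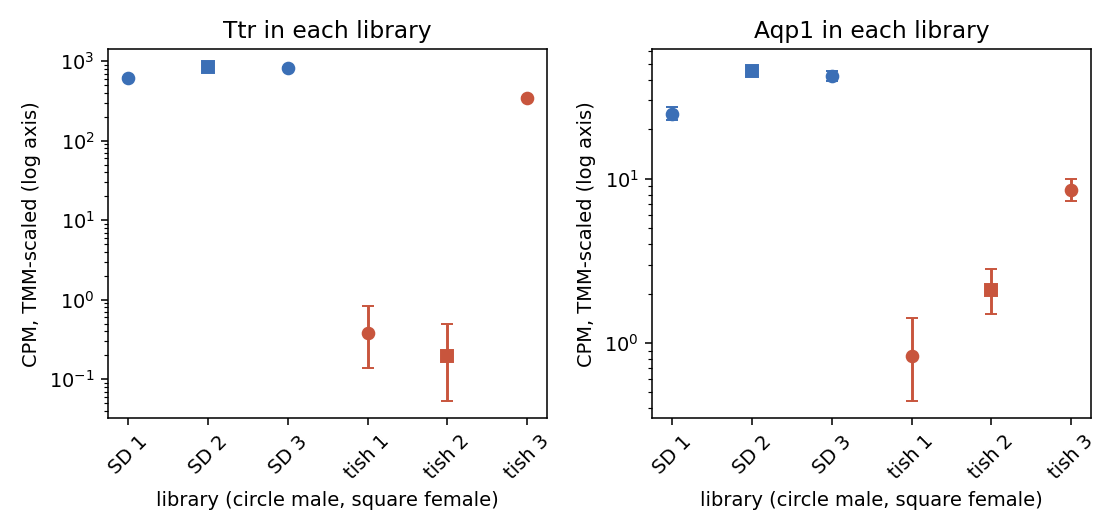
Level of Ttr (left) and Aqp1 (right) in each library, in CPM on log axes, with SD in blue and tish in red, circles for males and squares for females; bars are exact 95% counting intervals. Ttr lies between 613 and 851 CPM in SD, at 0.383 and 0.194 CPM in tish 1 and tish 2 and at 346 CPM in tish 3.

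In SD, Ttr was among the abundant transcripts of the dissected tissue. It ranked 146th, 81st and 77th by counts among all genes in SD 1, SD 2 and SD 3, and took 0.0635% to 0.0841% of the counts there. In tish 3 it ranked 484th and took 0.0335% of the counts. In tish 1 and tish 2 it ranked 15116th and 16025th, so dissected samples of 1 line ranged from high abundance to near absence of this transcript. The labels do not say how the cortex of each animal was freed of ventricular tissue. How much choroid plexus each sample held was not tested.

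The level of Ttr in tish 3 was 904-fold that in tish 1, with an exact 95% interval of 415 to 2463, and 1782-fold that in tish 2, with an interval of 696 to 6542. These intervals cover counting error only. SD 1, the lowest SD library, was 1.77-fold above tish 3 (interval 1.72 to 1.82) and 1599-fold above tish 1 (interval 735 to 4359). Between tish 1 and tish 2 the counts of 6 and 4 gave a ratio of tish 2 to tish 1 of 0.507, with an interval of 0.105 to 2.14, so those libraries were not distinguishable at this depth. As a share of the SD mean, Ttr stood at 0.0501%, 0.0254% and 45.3% in tish 1, tish 2 and tish 3.

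No tested gene varied more than Ttr among the tish libraries. The standard deviation of its log2 CPM within tish was 5.67, the highest of 14818 tested genes, against a median over those genes of 0.12. Within SD it was 0.26, against a median of 0.17, and 4216 genes varied at least as much there. The wide spread of Ttr was thus that of the tish libraries.

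Aqp1 also differed among the tish libraries, less widely than Ttr and as a graded rise from tish 1 through tish 2 to tish 3. Its reads numbered 437 in SD 1, 837 in SD 2 and 784 in SD 3, against 13 in tish 1, 43 in tish 2 and 168 in tish 3. The level was 24.9, 45.2 and 42.0 CPM in SD and 0.830, 2.09 and 8.55 CPM in tish. Every SD library was again above every tish library, and tish 3 was again the highest of its group.

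The level of Aqp1 in tish 3 was 10.3-fold that in tish 1 (exact 95% interval 5.86 to 19.7) and 4.09-fold that in tish 2 (interval 2.91 to 5.86). Unlike Ttr, Aqp1 was counted more often in tish 2 than in tish 1, by 2.52-fold with an interval of 1.33 to 5.10. The libraries stood at 2.22%, 5.59% and 22.9% of the SD mean in tish 1, tish 2 and tish 3. The standard deviation of log2 CPM of Aqp1 within tish was 1.62, which 57 of the 14818 tested genes reached, Aqp1 included.

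The start region of Aqp1 is shown as the window in which a promoter element could be read. A link between this sequence and the levels in the libraries was not tested. The bases are those of RefSeq for the build GRCr8, chr4:85812534-85812833 on the + strand, from 250 bases before the annotated start to 50 bases after it, with a TATAAA motif in capitals.
Aqp1: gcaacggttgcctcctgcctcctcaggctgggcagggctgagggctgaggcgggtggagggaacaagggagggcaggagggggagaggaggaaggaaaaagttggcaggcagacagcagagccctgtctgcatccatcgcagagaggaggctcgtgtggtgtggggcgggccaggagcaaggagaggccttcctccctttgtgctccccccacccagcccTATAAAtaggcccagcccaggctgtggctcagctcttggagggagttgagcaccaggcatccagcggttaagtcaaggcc
The motif begins 30 bases before the annotated start which is the usual distance of a TATA box. TATAAA on the strand of the gene was found in 8.80% of 33469 windows of the same length. It was not found in the window of Ttr in that table. That window follows the annotated start, so the search would miss a motif beside another start and does not show that Ttr lacks a TATA box. Neither TAATCC nor TGTTTAC was found on either strand in the window of Ttr or of Aqp1, against 7.17% and 3.78% of all windows that hold them. These are matches of letters and show no binding. In the GRCr8 table no other gene overlapped Ttr, whose nearest protein-coding neighbours are Dsg2 and B4galt6, or Aqp1, which lies between Mindy4 and Ghrhr. The annotation used for counting was not among the sources used here.

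The question put by the design is whether expression in the embryonic cortex of tish rats differs from that of SD rats. Aqp1 was lower in tish, at a log2 fold change of -3.26 (SE 0.80, edgeR quasi-likelihood test, adjusted p = 0.0391), a 9.58-fold difference between 37.4 ± 10.9 CPM in SD and 3.82 ± 4.14 CPM in tish (SD, n = 3 each). For Ttr the log2 fold change was -2.72 (SE 2.30, adjusted p = 0.457), from 764 ± 132 CPM in SD to 116 ± 200 CPM in tish (SD, n = 3 each), and did not pass the threshold of 0.05. The gene with the larger drop in tish 1 and tish 2 was therefore the one without a call, and its standard error was of the size of the change itself. Of all tested genes 26.3% were called, 12.9% as lower in tish, so 1 call among 2 members is not a result about the pair.

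Separation of the groups was complete for both genes. Both members, and 22.6% of all tested genes, had every tish library below every SD library. An exact two-sided permutation test of log2 CPM gave p = 0.1 for each member, the smallest p that 3 against 3 libraries can give. In this bulk tissue, fewer cells of a type and less RNA per cell cannot be told apart, and other choroid plexus markers were not analysed here because the identifiers in the count table are not paired with symbols.

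The calls turned on single libraries. Tish 3 is known to stand apart in these genes, so a fit without it is conditioned on the outcome: its values describe the remaining 5 libraries, and its adjusted p is no independent support for a difference. Without tish 3 the log2 fold change of Ttr was -11.40 (SE 0.31, edgeR adjusted p = 3.67e-06) and that of Aqp1 was -4.62 (SE 0.44, adjusted p = 0.00177). The tish side of that fit held only 6 and 4 Ttr reads. Its SE is derived from the F statistic and does not measure their counting error. The counting interval of SD 1 over tish 1 alone ran from 735-fold to 4359-fold. With SD 1 left out as well as tish 3 the values were -11.54 (adjusted p = 4.30e-08) and -4.84 (adjusted p = 8.78e-05). Leaving out any other single library ended the call of Aqp1, with edgeR adjusted p from 0.0691 without tish 1 to 0.139 without tish 2, through 0.0779, 0.105 and 0.107 without SD 1, SD 2 and SD 3. Its log2 fold change stayed between -3.48 and -2.81 in those fits. The call was also lost with no filter on low counts (adjusted p = 0.0903), with sex as a covariate (0.0907) and with males alone (0.266).

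**Figure D2:**
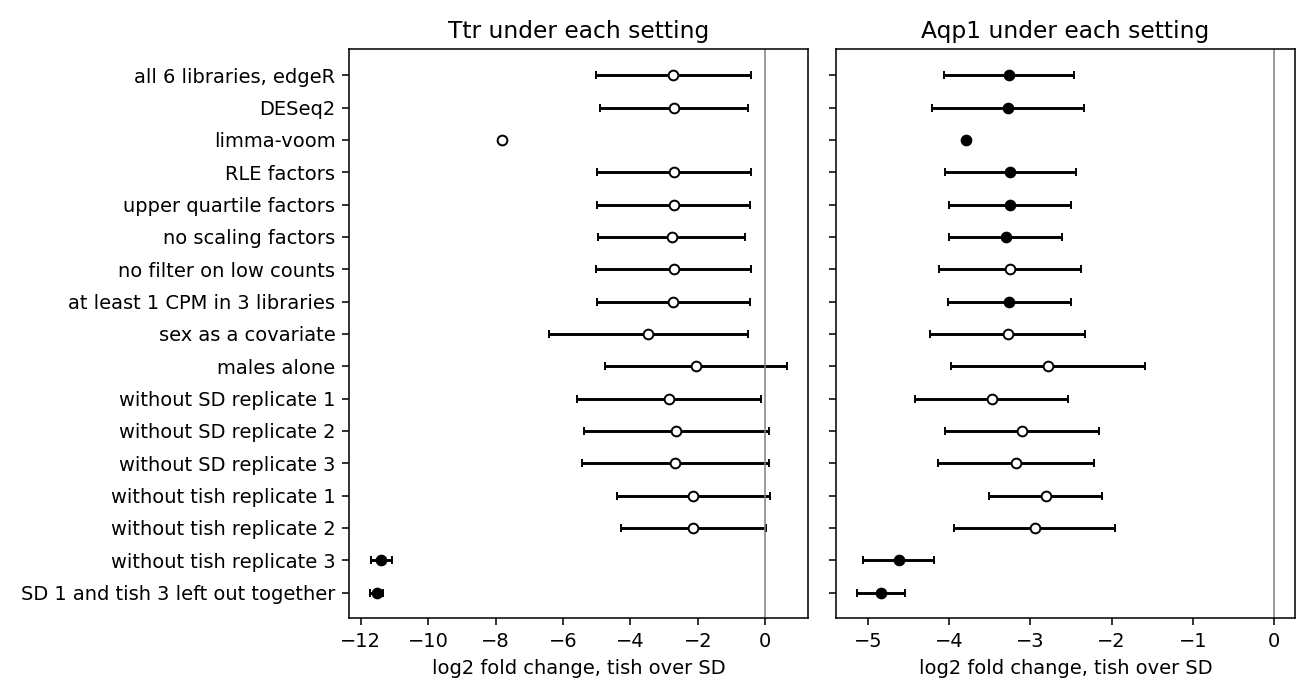
Log2 fold change of Ttr (left) and Aqp1 (right) in tish over SD under each setting of the analysis, with bars of 1 standard error where the method gives one, filled points for an adjusted p under 0.05, and a different horizontal scale in each panel. Ttr moves from -2.72 with all 6 libraries to -11.40 without tish 3, and Aqp1 lies between -4.84 and -2.79 throughout. Where tish 3 is left out, the bar of Ttr does not measure the counting error of the few tish reads.

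The size of the change in Ttr also depended on how libraries were averaged. edgeR and DESeq2, which compare mean counts, gave -2.72 and -2.71 with all libraries, and tish 3 supplied 99.8% of the summed Ttr CPM of tish. The difference between the group means of log2 CPM was -7.67, and limma-voom, which works on log values, gave -7.81 (adjusted p = 0.0979). For Aqp1 the same methods gave -3.26 with edgeR, -3.27 with DESeq2 and -3.79 with limma-voom, a narrower range than for Ttr.

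The proportion of Ttr to Aqp1 reads differed between libraries as well. There were 24.6, 18.9 and 19.7 Ttr counts per Aqp1 count in SD 1, SD 2 and SD 3. In tish 1, tish 2 and tish 3 there were 0.462, 0.0930 and 40.5. Tish 3 lay above all SD libraries in this proportion, and tish 1 and tish 2 lay far below them. The counts are not scaled by transcript length, so the proportion is compared between libraries and does not rank the genes.

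**Figure D3:**
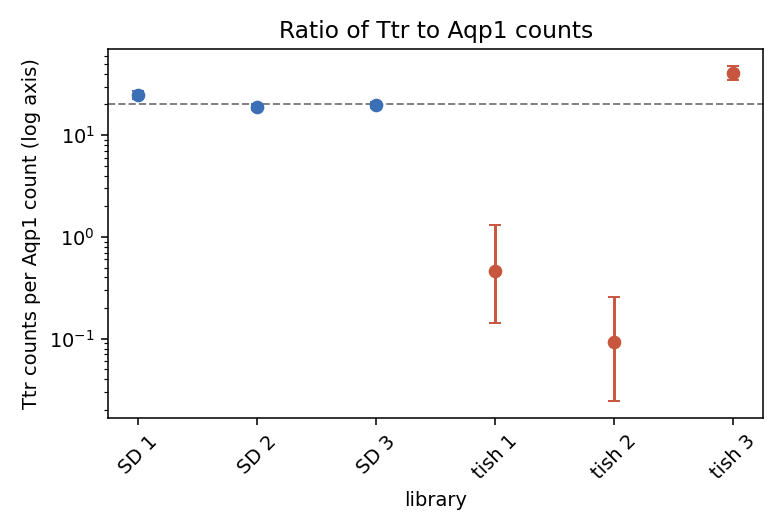
Ttr counts per Aqp1 count in each library on a log axis, SD in blue and tish in red, with exact 95% counting intervals and a dashed line at the ratio of the summed SD counts, 20.4. Tish 3 lies above the SD libraries at 40.5, and tish 1 and tish 2 lie below them at 0.462 and 0.0930.

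Against the summed SD counts, which held 20.4 Ttr counts per Aqp1 count, tish 3 had 1.98 times as many, with an exact 95% interval of 1.70 to 2.33. At the SD proportion, the 6 Ttr counts of tish 1 would go with 0.294 Aqp1 counts, and 13 were observed. The 4 Ttr counts of tish 2 would go with 0.196, and 43 were observed. Most Aqp1 reads of tish 1 and tish 2 were thus not matched by Ttr reads at the proportion of SD. Between groups the log2 ratio was 4.38 ± 0.21 in SD and 0.40 ± 4.40 in tish (SD, n = 3 each), a difference of -3.99 with an exact two-sided permutation p of 0.4, where 0.1 is the smallest possible.

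A smaller difference ran through the SD libraries. Both genes were lowest in SD 1, where Ttr was at 80.2% and Aqp1 at 66.6% of the SD mean. SD 2 was 1.39-fold above SD 1 for Ttr (exact 95% interval 1.36 to 1.42) and 1.81-fold for Aqp1 (interval 1.61 to 2.04). SD 2 and SD 3 differed by 1.03-fold for Ttr (interval 1.01 to 1.05) and by 1.07-fold for Aqp1 (interval 0.974 to 1.19). These counting intervals leave out variation between animals, and 3 animals allow no test of a single library.

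Males and females were found at both high and low levels. Of the tish libraries, the female tish 2 had the lowest level of Ttr, and the males tish 1 and tish 3 had the lowest and the highest level of Aqp1. SD 2, the SD female, had the highest level of each gene. With genotype in the model, the log2 fold change of males over females was 1.55 (SE 3.23, edgeR adjusted p = 0.882) for Ttr and 0.14 (SE 0.95, adjusted p = 0.966) for Aqp1. Neither passed the threshold, which 0.0405% of all tested genes passed, and the standard errors leave room for differences of either sign.

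Other genes also set tish 3 apart from the other tish libraries. In tish 3, 4 of the tested genes were at least 10-fold above both other tish libraries, and 12 were at least 10-fold below both. Among those above, Ttr had the widest gap. All 4, Ttr included, were also at least 10-fold higher in every SD library than in tish 1 and tish 2. The share of all tested genes with such a difference was not computed. The 4 include ENSRNOG00000019902 and ENSRNOG00000039107, the genes given below as most like Ttr, so the descriptions overlap. Aqp1, whose gap came 10th among the 14818 genes, did not reach 10-fold over tish 2. In tish 1 and tish 2, 0 and 1 genes were at least 10-fold above both others of the group, and 0 and 7 at least 10-fold below. In SD 1, SD 2 and SD 3 there were 5, 1 and 0 such genes above and 2, 5 and 2 below.

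**Figure D4:**
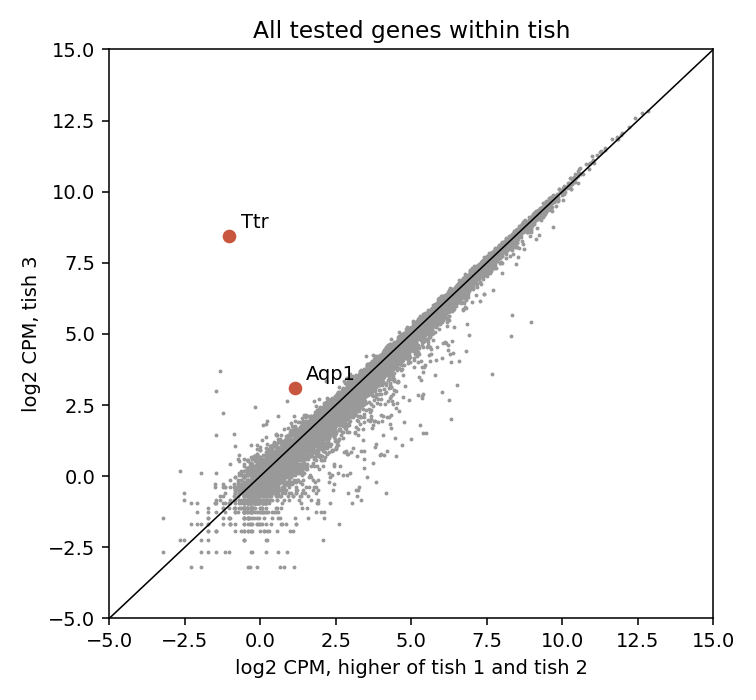
Log2 CPM of each tested gene in tish 3 (vertical) against the higher of tish 1 and tish 2 (horizontal), with the line of equal level and the members in red. Ttr stands farther above the line than any other tested gene, and Aqp1 lies above it by a smaller distance.

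Genes with a similar profile were sought by Pearson's r of log2 CPM over the 6 libraries, among 3356 other tested genes with a mean of at least 1 CPM and a range of at least 1 on the log2 scale. In the level of Ttr, tish 1 and tish 2 lie far below the other libraries, and in that of Aqp1 every tish library lies below every SD library, so these values are not spread evenly and r is given only as a measure of likeness. With Ttr, 21 genes (0.626%) reached an r of at least 0.95, and with Aqp1, 42 genes (1.25%). Aqp1 itself came 28th among the genes most like Ttr, and Ttr came 61st among those most like Aqp1.

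The gene most like Ttr was ENSRNOG00000019902, with r = 0.996. Its reads numbered 107 in SD 1, 159 in SD 2 and 143 in SD 3, against 5 in tish 1, 3 in tish 2 and 90 in tish 3. It was picked for its likeness to Ttr, so low counts in tish 1 and tish 2 and a higher count in tish 3 follow from the choice. Its log2 fold change was -2.12 (SE 1.05, edgeR adjusted p = 0.208).

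The gene most like Aqp1 was ENSRNOG00000023340, with r = 0.993. Its reads numbered 153, 195 and 215 in the SD libraries against 4, 9 and 53 in the tish libraries, in order of replicate. As with Aqp1, tish 2 was above tish 1 and tish 3 was the highest of its group. Its log2 fold change was -3.14 (SE 0.71, edgeR adjusted p = 0.0212). Among the genes that reached 0.95, 7 of the 21 like Ttr and 36 of the 42 like Aqp1 were called lower in tish. Of all tested genes 12.9% were so called. The genes were picked by likeness to the members over the same libraries, so these counts and the profiles above follow from the choice and are no separate result.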

How the data were processed

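Unnormalized read counts, as deposited by the authors, give each Ensembl gene a whole number in each of 6 rat cortex libraries. STAR, the build Rnor_6.0 and featureCounts 1.5.0 are named in the submitters' processing notes. Annotation, strand setting and treatment of reads with several positions: not given in the sources used here. The table repeats nearly all of its genes, with 65505 lines for 32754 distinct IDs, and the first line of each ID was used.

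The fit used edgeR 4.0.16 in R 4.3.3 on the whole table (filterByExpr with a minimum count of 10, TMM, robust quasi-likelihood F test, genotype as the only term, Benjamini-Hochberg adjustment over 14818 genes, threshold 0.05). A standard error is the log2 fold change divided by the square root of F. CPM use TMM-scaled totals of the tested genes, and log2 CPM a prior count of 2. The ratio of Ttr to Aqp1 used 1 added count for the permutation test. Intervals are exact (Poisson, or binomial for ratios) at 95%. Replicates differed by a chi-square of at least 8.56 times its degrees of freedom, so each counted once. The test was checked on simulated counts with the same dispersion for every gene and no outlying library. That check does not cover a gene spread as Ttr is in tish.

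Alternatives were DESeq2 1.42.0, limma-voom (limma 3.58.1), other scaling factors, filters and thresholds, sex as a term, males alone and libraries left out. The members, lists and alternatives were chosen with earlier results of these data known. The planned lists of choroid plexus, aquaporin, hormone carrier and other marker genes, and Eml1, were not analysed here. This was because 0 Ensembl IDs are paired with symbols in the reference table. For the same reason the rule allowed 2 genes like each member, by identifier, and 1 is described above. The second was ENSRNOG00000039107 for Ttr (r = 0.995, log2 fold change -2.83, SE 1.27, edgeR adjusted p = 0.180). For Aqp1 it was ENSRNOG00000038202 (r = 0.991, log2 fold change -1.88, SE 0.31, edgeR adjusted p = 0.00257). The sequences of 2 members were matched by symbol in the GRCr8 table.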

Additional observations from a re-analysis of the deposited data

How the results depend on the processing

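Ttr kept its direction between tish and SD in all 18 alternatives and its side of the threshold in 16; it passed without tish 3 (-11.40) and with SD 1 and tish 3 left out together (-11.54). With 1 library left out its log2 fold change ran from -11.40 to -2.14. Aqp1 kept its direction in all 18 and its call in 9; it lost the call at an adjusted p under 0.01 (-3.26), with no filter (-3.25), with sex as a covariate (-3.28) and with males alone (-2.79), and with 1 library left out it ran from -4.62 to -2.81. The cause was not tested, beyond males alone and left-out libraries having fewer samples. The alternatives that change only the threshold reuse the main fit, so for either gene the direction could not change in them. Whether a gene passed in them was likewise fixed by its main adjusted p, 0.457 for Ttr and 0.0391 for Aqp1. They are counted among the 18.

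The genes called over the whole table numbered 3894, 1930 at an adjusted p under 0.01, 2130 with males alone and 2437 to 4764 with 1 library left out. The number of genes like Aqp1 was 42, 27 by Spearman's rho and 10 with group means removed. Between the sexes, Ttr turned to -0.24 without tish 2 and -0.20 without tish 3, and ran to 9.76 with 1 library left out. Aqp1 turned to -0.30 with no genotype term, -0.43 without tish 2 and -0.61 without tish 3, and ran to 1.20; none of these passed the threshold. The log2 ratio of Ttr to Aqp1 ran from -6.45 to -2.22 and did not pass in 10 alternatives, where the design cannot reach 0.05. Without scaling factors, an alternative chosen after seeing the data, tish 3 exceeded the next tish library by 874-fold for Ttr and 4.02-fold for Aqp1. Depth limits Ttr in tish 1 and tish 2, where 6 and 4 counts lie near the floor of 3. No paired analysis was possible because the labels link no SD library to a tish library.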
